A study of Caenorhabditis elegans with 6 samples.

Results

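The sperm-family genes described here are those whose symbol begins with msp-, spe-, fer-, ssp-, sss- or nspd-, chosen by name with earlier results of these data known. At least 1 peak was assigned to 24 of them in the H3K18ac table, among 11891 genes in all, and to 34 in the H3K27ac table, among 12551. Together 36 genes had a value in at least 1 mark and 22 in both, out of 97 annotated genes with such symbols in RefSeq (assembly WBcel235), so 61 had no assigned peak in either table. A gene without an assigned peak has no value here, and no statement covers it.

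The libraries are ChIP-seq of acetylated lysine 18 or lysine 27 of histone H3 (H3K18ac, H3K27ac) from whole Caenorhabditis elegans of strain N2, labelled wild-type, raised at 20 °C and harvested as L4 larvae or young adults. From the egg onwards one group ate HT115 bacteria with an empty RNAi vector, and the other a mixture in which 50% carried an RNAi clone for cco-1, which encodes part of the respiratory chain enzyme cytochrome c oxidase. The series design states that the worms also carried an hsp-6::GFP reporter, a transgene that reports the mitochondrial stress response, which would then be shared by both conditions. Of the 6 libraries, 4 are used (1 for each mark and condition), and the input library of each condition was not analysed here.

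Nematode sperm have no flagellum and crawl on a cytoskeleton of major sperm protein (MSP), which the msp genes encode in many near-identical copies. MSP released from sperm is also the signal that triggers oocyte maturation and ovulation. Hermaphrodites make sperm during the last larval stage and then switch to oocytes, and the harvest stage in the labels spans that switch. The spe and fer genes were found in screens for mutants with defective spermatogenesis or sperm function, the ssp genes encode small proteins related to MSP, and the nspd genes encode small nematode-specific peptides. Acetylation of lysines 18 and 27 of histone H3 marks active promoters and enhancers.

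The annotation itself shows how repetitive these families are. Of 35 annotated msp genes, 28 have a length of exactly 384 bp, with 15 genes on chromosome II and 20 on chromosome IV. Of 12 nspd genes, 6 are 216 bp long, and of 13 ssp genes, 5 are 330 bp long. The 34 spe genes are mostly single genes of 443 to 18862 bp, spread over chromosomes I to V. None of the 97 genes lies on chromosome X. How reads that match several copies were counted is not given in the sources used here, so values of single msp, nspd and ssp genes are uncertain, and a copy without a peak is not shown to lack the mark.

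Peaks were most often present at the nspd genes and least often at the msp genes for H3K27ac: 9 of 12 nspd genes (75%), 5 of 13 ssp genes (38.5%), 11 of 34 spe genes (32.4%) and 9 of 35 msp genes (25.7%). For H3K18ac the counts were 4 of 12 (33.3%), 4 of 13 (30.8%), 9 of 34 (26.5%) and 7 of 35 (20.0%). The only fer gene in the annotation (fer-1, a ferlin needed for fusion of sperm organelles) and both sss genes had no assigned peak in either table. The annotation calls nspd-11, nspd-12 and msp-42, all of which had a value, pseudogenes.

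Values are counts per 1000000 counts in nuclear peaks (CPM). The library totals were 8293828 counts (empty vector) and 8948860 counts (cco-1 RNAi) for H3K18ac, and 11556404 and 11593321 counts in the same order for H3K27ac. A gene takes its strongest assigned peak, and "rose" or "fell" means a difference of at least 1.5-fold (log2 0.58) between the conditions. With 1 library per group there is no replicate error, no test and no p-value; the 95% intervals on folds are exact (Clopper-Pearson) and cover counting error only. In whole worms, fewer cells of a type and less of the mark per cell cannot be told apart.

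In worms on empty vector the typical sperm-family peak carried less H3K27ac per kb than the typical gene, but not less H3K18ac. The median H3K27ac level per kb of peak was 47.7 CPM per kb in the 34 genes, beside 61.9 CPM per kb over all genes. For H3K18ac it was 80.1 CPM per kb in 24 genes, beside 67.0 CPM per kb over all genes. The marks are not compared over the same genes here, since 12 genes had a value only for H3K27ac and 2 only for H3K18ac. Within H3K27ac the spe genes had 86.5 CPM per kb, the ssp genes 54.2, the msp genes 42.3 and the nspd genes 40.4, and single genes ranged from 18.1 CPM per kb at nspd-6 to 117 at spe-4. The families are not separated by these levels, since their ranges overlap: 40.6 to 117 CPM per kb in spe, 31.2 to 63.8 in ssp, 32.1 to 58.1 in msp and 18.1 to 89.1 in nspd genes. By mean CPM of both conditions, 26 of the 34 H3K27ac genes and 15 of the 24 H3K18ac genes lay below the median of all genes.

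**Figure D1:**
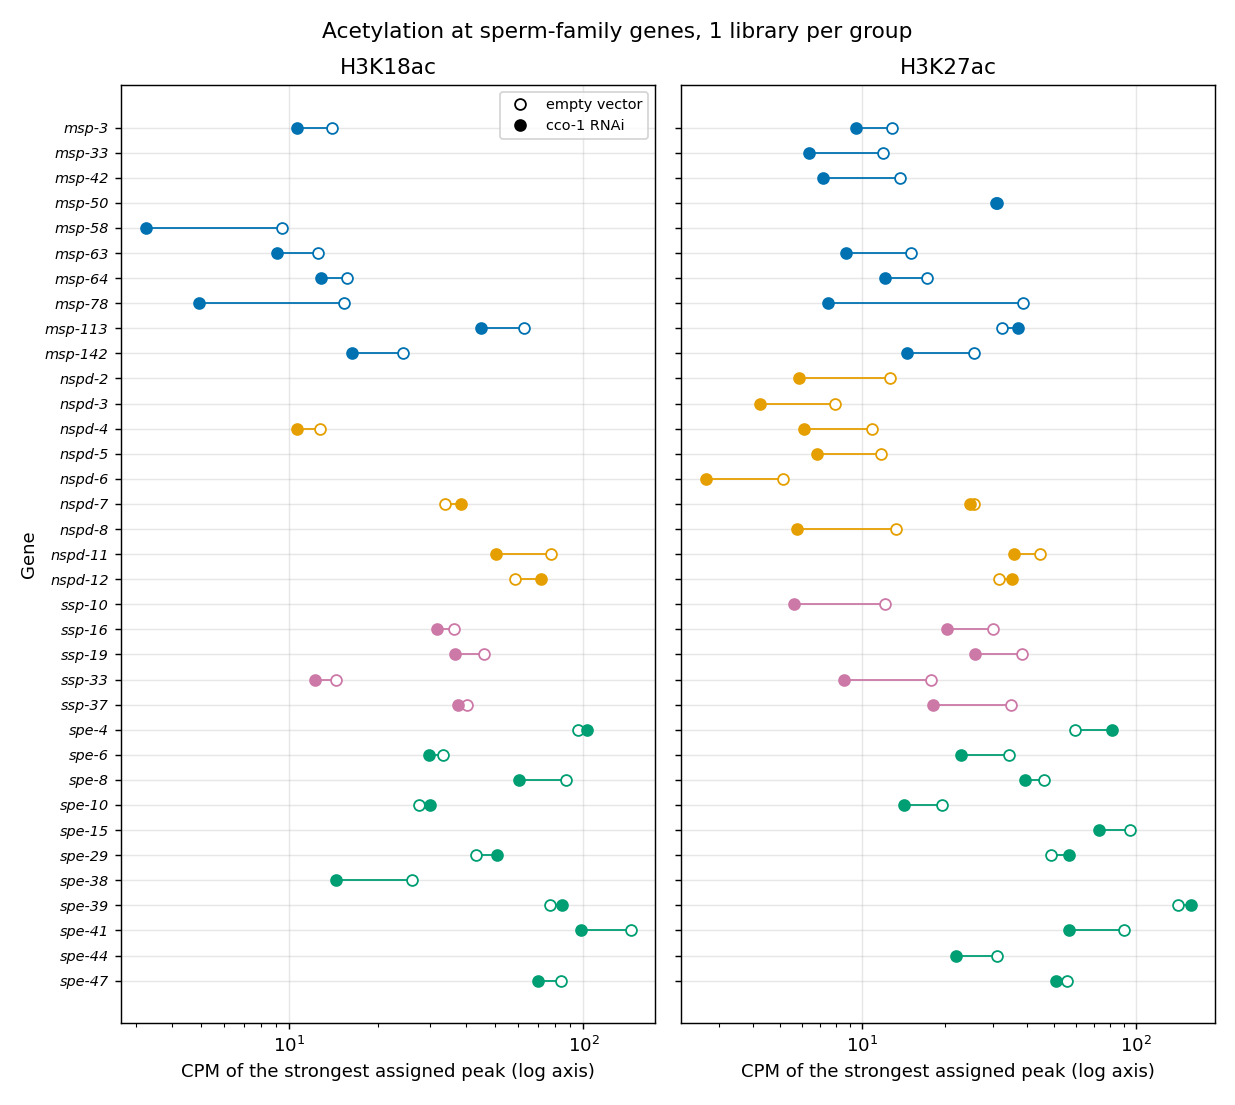
CPM of the strongest assigned peak (log axis) of each sperm-family gene on empty vector (open points) and cco-1 RNAi (filled points), 1 library per point, for H3K18ac (left) and H3K27ac (right); a missing pair is a gene with no assigned peak. For H3K27ac the filled point lies left of the open point at 28 of the 33 genes drawn.

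With cco-1 RNAi, H3K27ac fell at 16 of the 34 sperm-family genes and rose at 0, and the remaining 18 stayed within 1.5-fold. Over all genes 21.9% fell and 8.72% rose. The median log2 ratio was -0.58, with an order-statistic interval of -0.87 to -0.38 over the genes, beside -0.17 over all genes. The counting interval lay below a fold of 1 at 26 genes, above it at 3 and spanned it at 5. H3K18ac fell at 4 of 24 genes and rose at 0, where 13.1% of all genes fell and 8.04% rose, so its share of falls (16.7%) was near the background. Its median log2 ratio was -0.27 (interval -0.53 to -0.11), beside -0.04 over all genes. The intervals of both medians treat the genes as independent, although near-identical copies may share reads. They do not cover differences between libraries and are no test against all genes. Near the 1.5-fold limit, 5 genes for H3K27ac and 4 for H3K18ac missed it by less than 0.1 on the log2 scale.

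The excess of H3K27ac falls went with low peak strength. Over all genes, the median log2 ratio ran from -0.64 in the weakest decile of mean CPM to 0.14 in the strongest, and 33.3% of the genes below the median strength fell. All 8 sperm-family genes of the weakest decile fell, in a decile where 53.7% of all genes did. After subtracting the median of all genes in the same decile, 26 of 34 genes were still below 0 with a median of -0.26, but only 4 (11.8%) were at least 1.5-fold lower, beside 10.5% of all genes. Those 4 were msp-78, spe-41, ssp-33 and ssp-37, named after their values were seen. For H3K18ac the same step left 18 of 24 genes below 0, with a median of -0.22 and 4 at least 1.5-fold lower, beside 11.7% of all genes.

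**Figure D2:**
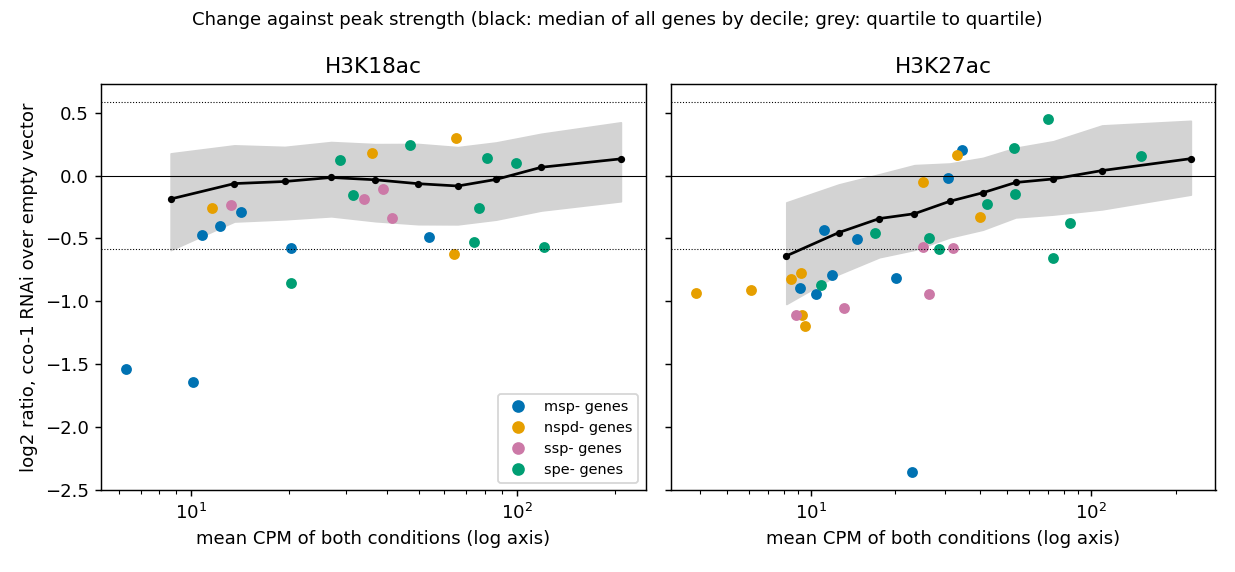
log2 ratio (cco-1 RNAi over empty vector) against mean CPM (log axis) for sperm-family genes (coloured points), with the median (black) and the range between quartiles (grey) of all genes by decile of strength, for each mark; dotted lines mark 1.5-fold. The H3K27ac median of all genes runs from -0.64 to 0.14, and 26 of the 34 points lie below the median of their decile.

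Among the structural genes, those for MSP, msp-78 (WBGene00003465, chromosome IV) stood lowest in both marks. Its H3K27ac peak (9770164 to 9770824, over the end of the gene, build ce11) went from 444 counts on empty vector to 87 on cco-1 RNAi, 38.4 to 7.50 CPM, which is 5.12-fold lower (4.06 to 6.52). Its H3K18ac peak (9770343 to 9770722) went from 127 to 44 counts, 15.3 to 4.92 CPM, 3.11-fold lower (2.19 to 4.49). It was the only one of the 22 genes with both values that fell in both marks, where 6.39% of all genes with both did. The gap to the other msp genes was wide in H3K27ac, where the next lowest log2 ratio was -0.94 at msp-42 against -2.36 at msp-78.

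H3K27ac also fell at msp-142 (WBGene00003469, chromosome II, 5797914 to 5798419), from 296 to 169 counts or 25.6 to 14.6 CPM, 1.76-fold lower (1.45 to 2.13). At its neighbour msp-63 (5797002 to 5797357) it fell from 174 to 101 counts, 1.73-fold lower (1.34 to 2.23). The other falls were at msp-42, with 159 and 83 counts (1.92-fold lower, 1.47 to 2.54), and at msp-33, with 137 and 74 counts in a peak 1234 bp upstream (1.86-fold lower, 1.39 to 2.50). In all, 5 of the 9 msp genes fell and 0 rose, with a median log2 ratio of -0.79, beside 21.9% of all genes that fell. All 9 lay below the median strength, where 33.3% of all genes fell. After subtracting the median of the strength decile, only msp-78 among them was at least 1.5-fold lower, at -2.05.

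The remaining msp genes did not pass 1.5-fold for H3K27ac. Levels were 17.1 and 12.1 CPM at msp-64, 12.8 and 9.49 CPM at msp-3, and 31.1 and 30.7 CPM at msp-50, for empty vector and cco-1 RNAi. A second, weaker peak 732 bp downstream of msp-50 went the other way, from 123 to 229 counts, a 1.86-fold rise (1.48 to 2.33). The strongest msp peak by the mean of both conditions, 554 bp downstream of msp-113 (WBGene00003468), had 32.3 CPM on empty vector and 37.1 CPM on cco-1 RNAi, a fold of 1.15 (0.998 to 1.32). Its H3K18ac counterpart had 62.8 and 44.7 CPM, 1.41-fold lower (1.23 to 1.61), so the marks differed in direction there.

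For H3K18ac, 2 of 7 msp genes fell, beside 13.1% of all genes, and all 7 had a log2 ratio below 0. Besides msp-78 the fall was at msp-58 (WBGene00003451, chromosome IV, 5309119 to 5309374, 293 bp downstream of the gene), from 78 to 29 counts, 2.90-fold lower (1.87 to 4.61). Both genes lay in the weakest decile of strength, where 25.5% of all genes fell. After subtracting the median of that decile, log2 ratios were -1.45 at msp-78 and -1.35 at msp-58. At msp-142 the counts were 202 and 146, 1.49-fold lower (1.20 to 1.86), just short of the limit. Log2 ratios at msp-3, msp-63 and msp-64 were -0.40, -0.47 and -0.29, on 81 to 130 counts per library, and the intervals of msp-3 and msp-64 included a fold of 1.

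Among the nspd genes H3K27ac fell at 6 of 9, with a median log2 ratio of -0.82, beside 21.9% of all genes. All 6 were peaks over the gene itself, with few counts and in the weakest decile of strength, where 53.7% of all genes fell. After subtracting the median of that decile their log2 ratios were -0.56 to -0.14, and none passed 1.5-fold. The lowest was nspd-8 (WBGene00021280, chromosome I, 2551388 to 2551669), from 153 to 67 counts or 13.2 to 5.78 CPM, 2.29-fold lower (1.71 to 3.10). At nspd-2 (chromosome IV, 9843978 to 9844338) the counts went from 146 to 68, 2.15-fold lower (1.61 to 2.92). At nspd-3, nspd-4, nspd-5 and nspd-6 the log2 ratios lay between -0.93 and -0.78, and nspd-6 was the weakest of all H3K27ac peaks assigned to these families, with 59 and 31 counts. The 6 that fell had 5.11 to 13.2 CPM on empty vector.

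The other 3 nspd genes had stronger peaks of 25.6 to 44.7 CPM on empty vector and did not pass 1.5-fold for H3K27ac. At nspd-7 (WBGene00012781) the levels were 25.6 and 24.7 CPM, and at nspd-12 31.4 and 35.1 CPM. For nspd-11 the assigned peak lay 3404 bp downstream, with 44.7 and 35.6 CPM. In H3K18ac only the nspd-11 peak, 3385 bp from the gene, fell, from 77.6 to 50.5 CPM (1.54-fold lower, 1.36 to 1.74). A weaker H3K18ac peak covering nspd-11 itself had 144 and 155 counts, a fold of 0.998 (0.790 to 1.26). At nspd-12 H3K18ac stood at 58.5 and 71.9 CPM, a fold of 1.23 (1.09 to 1.38), the highest among the strongest peaks of the 24 genes in that mark. A weaker H3K18ac peak over the start of nspd-7 had 29.4 and 41.8 CPM, a fold of 1.42 (1.21 to 1.68).

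All 5 ssp genes had a lower H3K27ac level with cco-1 RNAi, with each counting interval below 1, and 3 of them fell. Over all genes 21.9% fell, and 33.3% of those below the median strength, where all 5 ssp genes lay. After subtracting the median of the same strength decile, the log2 ratios were -0.47 at ssp-10, -0.60 at ssp-33 and -0.64 at ssp-37. At ssp-10 (WBGene00006039, chromosome IV, 9850658 to 9851045) the counts went from 140 to 65, 2.16-fold lower (1.60 to 2.95). At ssp-33 (WBGene00011134, chromosome V, 14711402 to 14711798) they went from 205 to 99, 2.08-fold lower (1.63 to 2.67), and at ssp-37 (WBGene00012211, chromosome I, 12561062 to 12561655) from 402 to 210, 1.92-fold lower (1.62 to 2.28). At ssp-16 and ssp-19 the folds were 1.48 lower (1.25 to 1.76) and 1.49 lower (1.28 to 1.73), just within the limit. H3K18ac fell at 0 of the 4 ssp genes with a value, beside 13.1% of all genes. It had 333 and 334 counts at ssp-37 (a fold of 0.93, 0.796 to 1.08), and ssp-33 had 14.3 and 12.2 CPM (a fold of 0.849, 0.649 to 1.11).

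**Figure D3:**
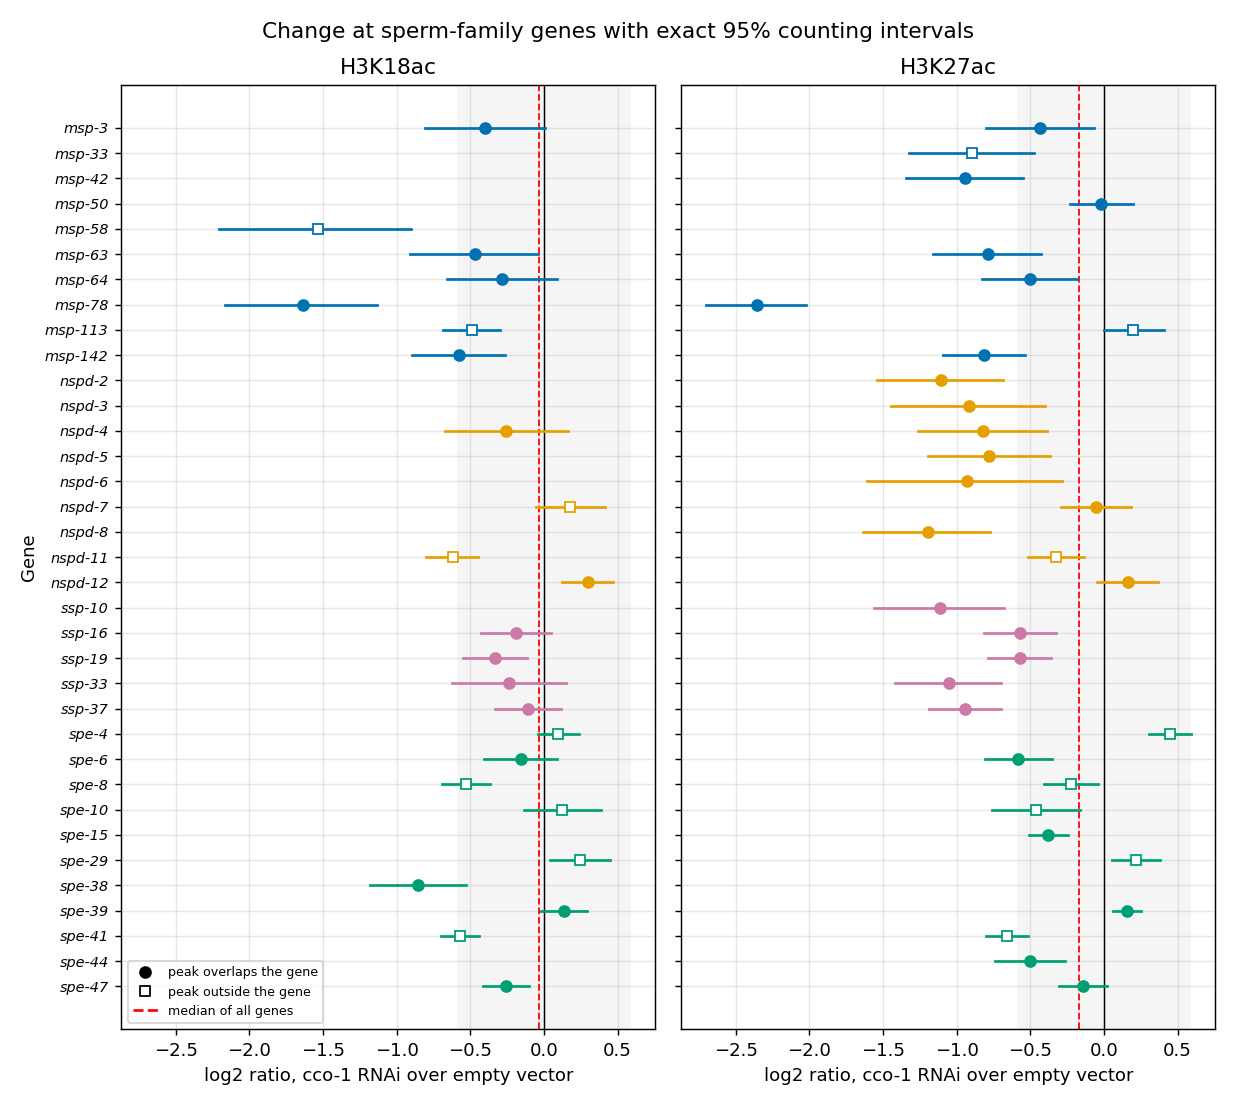
log2 ratio (cco-1 RNAi over empty vector) per gene with exact 95% counting intervals (bars), for peaks that overlap the gene (circles) or lie outside it (squares); the grey band is less than 1.5-fold and the dashed line the median of all genes. No gene lies right of the band in either mark, and for H3K27ac 15 of the 33 genes drawn lie left of it.

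Of the spe genes 2 of 11 fell for H3K27ac and 1 of 9 for H3K18ac (18.2% and 11.1%), near the shares of all genes, with medians of -0.38 and -0.16. The regulator among them, spe-44 (WBGene00007732, chromosome IV, 12453690 to 12454410, over the gene start), encodes a transcription factor that switches on sperm genes. Its H3K27ac level was 31 CPM on empty vector and 21.9 CPM on cco-1 RNAi, 1.41-fold lower (1.20 to 1.67), and no H3K18ac peak was assigned to it.

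Among the genes for sperm formation is spe-6, a casein kinase-like gene that also restrains sperm activation. Its H3K27ac level was 34.2 and 22.9 CPM, a log2 ratio of -0.58 that lay just short of the limit, while H3K18ac had 33.2 and 29.7 CPM. At spe-15, a myosin VI gene used to sort contents at sperm budding, H3K27ac over the start had 94.8 and 73.1 CPM, 1.30-fold lower (1.19 to 1.42). The peak at spe-10, a palmitoyltransferase gene, lay 339 bp downstream for H3K27ac with 19.6 and 14.2 CPM, and its H3K18ac counterpart had 27.5 and 29.9 CPM.

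Neither mark changed by 1.5-fold at spe-39, whose product acts in vesicle traffic in many tissues besides sperm. Its H3K27ac peak, over the gene start and the strongest of all these genes, had 142 and 159 CPM, a fold of 1.12 (1.04 to 1.19), and H3K18ac had 76.9 and 84.6 CPM, a fold of 1.10 (0.988 to 1.22). For spe-4, a presenilin-family gene, the strongest peak lay 11401 bp upstream, with 59.5 and 81.3 CPM of H3K27ac, a fold of 1.36 (1.24 to 1.51), which was the highest of the 34. A weaker H3K27ac peak 4089 bp upstream of spe-4 had 98 and 74 counts. Peaks this far away may belong to other genes.

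The genes spe-8, spe-29 and spe-47 act in sperm activation, the change from round spermatid to crawling sperm, and each stayed within 1.5-fold in both marks. The tyrosine kinase gene spe-8 had its peak 1470 bp downstream for H3K27ac, with 45.9 and 39.2 CPM, and 87.2 and 60.3 CPM of H3K18ac (1.44-fold lower, 1.29 to 1.62). At spe-29, a small membrane protein gene, the peaks just upstream had 48.9 and 56.8 CPM of H3K27ac and 43 and 51 CPM of H3K18ac, folds of 1.16 (1.04 to 1.30) and 1.18 (1.03 to 1.36). At spe-47, which helps to time activation, the stronger peak inside the gene had folds of 0.906 (0.809 to 1.01) for H3K27ac and 0.837 (0.75 to 0.934) for H3K18ac.

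The genes of sperm and egg interaction included the lowest spe values for H3K18ac. At spe-38 (WBGene00013121, chromosome I, 10964979 to 10965590, inside the gene), a membrane protein gene needed at fertilization, H3K18ac fell from 216 to 129 counts, 26 to 14.4 CPM, 1.81-fold lower (1.45 to 2.26). No H3K27ac peak was assigned to spe-38. At spe-41 (WBGene00004976, chromosome III), a TRP-family calcium channel gene needed for fertilization, the broad upstream H3K27ac peak (3445604 to 3447505) fell from 1037 to 660 counts, 89.7 to 56.9 CPM, 1.58-fold lower (1.43 to 1.74). The matching H3K18ac peak (3445501 to 3447285) went from 1205 to 876 counts, 1.48-fold lower (1.36 to 1.62). Of all sperm-family genes spe-41 had the most counts among those that fell.

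All peaks assigned to spe-41 lay on the same side: the 5 H3K18ac peaks had log2 ratios of -0.49, -0.55, -0.91, -0.57 and -0.49 in the order of their position, and the 4 H3K27ac peaks had -0.51, -0.41, -0.66 and -0.14. Of these, only the small H3K18ac peak 861 bp upstream (148 and 85 counts) and the broad H3K27ac peak passed 1.5-fold. Over the far end of the gene, peaks that the tables assign to K01A11.8 had H3K18ac log2 ratios of 0.26 and 0.20 and H3K27ac ratios of -0.35 and -0.30.

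Several sperm-family genes carried peaks that the tables assign to a neighbour. There were 24 such H3K18ac peaks over 11 genes and 23 H3K27ac peaks over 13 genes, and with them a peak of any assignment covered part of 28 and 38 of the 97 genes. Their median log2 ratios were -0.15 for H3K18ac and -0.25 for H3K27ac, and 3 fell and 1 rose in each mark, where 13.2% and 23.1% of all peaks fell and 9.16% and 8.73% rose. At spe-9, whose product is a sperm ligand needed for fertilization, an H3K27ac peak assigned to C17D12.10 fell from 332 to 153 counts, 2.18-fold lower (1.79 to 2.65). The stronger peak over spe-9, assigned to C17D12.15, had 701 and 566 counts, 1.24-fold lower (1.11 to 1.39). At spe-48 an H3K27ac peak assigned to Y51F10.11 rose from 1494 to 2589 counts, 1.73-fold (1.62 to 1.84), and over spe-6 an H3K18ac peak assigned to Y66D12A.21 rose from 259 to 563 counts, 2.01-fold (1.73 to 2.34).

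The H3K27ac values differed by placement. Where the strongest peak overlapped its gene, 14 of 26 sperm-family genes fell, with a median log2 ratio of -0.78, beside 21.2% and -0.15 over all genes with such peaks. Where it lay outside, 2 of 8 fell, with a median of -0.28, beside 23% and -0.20 over all genes. Among the msp, nspd and ssp genes with a peak over the gene, 13 of 20 fell. The overlapping peaks were also weaker, with a median of 17.4 CPM against 41.3 CPM for those outside, so placement and strength cannot be told apart here. For H3K18ac the counts were 2 of 15 over the gene and 2 of 9 outside, beside 11.6% and 15.5% of all genes.

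In the genome, 47 of the 97 annotated genes, 32 of them msp genes, lie in 3 clusters of at least 5 genes with gaps under 200000 bp, on chromosome II (4.79 to 5.20 Mb) and chromosome IV (4.99 to 5.32 Mb and 9.69 to 10.4 Mb). H3K27ac fell at 9 of the 15 sperm-family peaks in these clusters, and at 44 of 197 other peaks (22.3%) between them, near the 23.1% of all peaks. The median log2 ratios were -0.82 and -0.24, and the sperm-family peaks were weaker, with a median of 10.5 CPM against 28.7 CPM. H3K18ac fell at 2 of 8 sperm-family peaks and at 33 of 198 others (16.7%), where 13.2% of all peaks fell. The cluster at 4.99 to 5.32 Mb on chromosome IV differed for H3K18ac, with 15 of 45 other peaks (33.3%) lower. Other peaks are those outside the named families, and they can belong to other sperm genes. In that cluster ssq-2 and ssq-4 are such genes, with H3K18ac log2 ratios of -0.97 and -0.95. In the 9.69 to 10.4 Mb cluster the sperm genes ssq-1 and msd-3 fell for H3K18ac and H3K27ac respectively.

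The marks were then set side by side for the 22 genes with both. The log2 ratio was below 0 in both at 15 genes (42.2% of all genes with both), above 0 in both at 4, and of opposite sign at 3, namely msp-113, nspd-7 and spe-10. At nspd-7 the strongest peaks of the marks did not overlap, while at the other 21 genes they did. H3K27ac had the lower ratio at 16 of the 22, beside 58.7% of all genes, and the median difference between the marks was -0.23, beside -0.10 over all genes. The widest gaps in that direction were at ssp-37 (-0.84), ssp-33 (-0.82) and msp-78 (-0.72), and in the other direction at msp-113 (0.69).

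**Figure D4:**
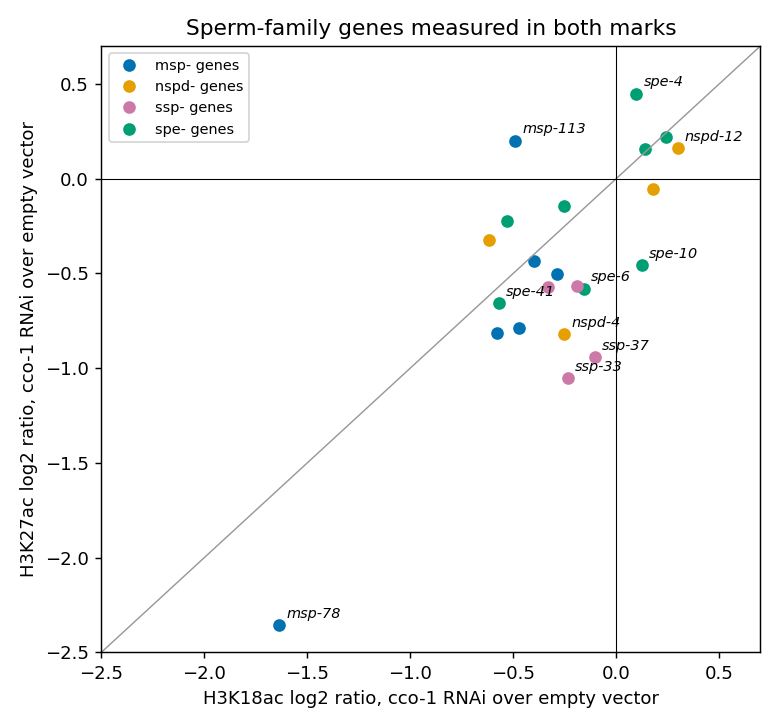
log2 ratio (cco-1 RNAi over empty vector) for H3K27ac against H3K18ac at the 22 sperm-family genes with a peak in both tables; the grey line marks equal ratios. Most points (16) lie below the line, and msp-78, at -1.64 and -2.36, stands apart from the rest.

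A further 12 genes had an assigned peak only in the H3K27ac table, and 9 of them fell, with a median log2 ratio of -0.90; msp-42, nspd-8 and ssp-10 were among them. The other 3, msp-50, spe-15 and spe-44, had log2 ratios of -0.02, -0.38 and -0.50. Of these 12, msp-50 and spe-15 were covered by H3K18ac peaks that the table assigns to neighbours; over msp-50 one assigned to ampd-1 had 870 and 1201 counts, a log2 ratio of 0.36, and the peaks over spe-15 had log2 ratios of -1.20 to 0.58. Only msp-58 and spe-38 had an assigned peak in the H3K18ac table alone, and both fell.

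Other sperm genes, listed by name outside these families, had falls and no rise in either mark. Of 29 listed, 7 had an H3K18ac peak and 4 fell, and the median log2 ratio was -0.61; 13.1% of all genes fell. The 4 were the ssq genes, a family of sperm-specific genes with strong peaks over the whole gene: H3K18ac at ssq-2 went from 305 to 156 CPM (1.96-fold lower, 1.84 to 2.1), at ssq-4 from 246 to 127 CPM, at ssq-3 from 227 to 129 CPM and at ssq-1 from 248 to 163 CPM. In H3K27ac the ssq genes had log2 ratios of -0.52 to -0.35, and 3 of the 9 listed genes with a peak fell, where 21.9% of all genes did, namely msd-3 (106 to 34 counts), msd-4 (320 to 207) and smz-1 (107 to 45). Of these, msd-3 (9.17 and 2.93 CPM) and smz-1 (9.26 and 3.88 CPM) lay in the weakest decile of strength, where 53.7% of all genes fell. The sperm phosphatase genes gsp-3 and gsp-4 stayed within 1.5-fold in both marks.

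Of 14 genes that set sperm fate or sperm gene expression, 3 of 9 with a peak fell for H3K18ac and 5 of 11 for H3K27ac, with medians of -0.14 and -0.55, beside 13.1% and 21.9% of all genes that fell. Both Argonaute genes of spermatogenesis were among them: at alg-4 H3K18ac fell from 75 to 47 counts and H3K27ac from 156 to 84, and at alg-3 H3K18ac fell from 146 to 69 counts while H3K27ac had 200 and 137 (1.46-fold lower). The GATA factor gene elt-1, which acts in the hypodermis as well as on sperm genes, had log2 ratios of -0.77 in both marks. H3K27ac also fell at fem-3 (-1.0), fog-3 (-0.77) and cpb-1 (-0.61), and no gene of the list rose by 1.5-fold. Some lay above 0 within the limit: tra-1 (0.52), fem-1 (0.44), fog-1 (0.22) and fem-2 (0.08) for H3K18ac. For H3K27ac these were tra-1 (0.55) and fog-1 (0.03). The summed level of the list on empty vector and cco-1 RNAi was 575 and 652 CPM for H3K18ac, and 629 and 579 CPM for H3K27ac. The list for reception of the MSP signal in oocytes and sheath cells had 0 falls in either mark, with 1 of 10 higher for H3K18ac (ceh-18) and 1 of 7 for H3K27ac (gsa-1). These genes act in other tissues as well. Over all genes 8.04% rose for H3K18ac and 8.72% for H3K27ac.

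Lists of oocyte and general germline markers were set beside these values. Of 24 oocyte genes 22 had an H3K27ac peak and 12 fell and 1 rose, with a median of -0.69 and a summed level of 2259 CPM on empty vector and 1493 CPM on cco-1 RNAi. Of 18 general germline genes 14 had a peak, 4 fell and 0 rose, with a median of -0.53 and sums of 1337 and 921 CPM. Over all genes 21.9% fell, so the germline count was near the background, but the median over all genes was higher, at -0.17. Every germline gene with a peak had a log2 ratio below 0, from -0.79 at syp-1 to -0.27 at htp-3. The list counts were not matched for peak strength. The sums over the 34 sperm-family genes were 1130 and 922 CPM. For H3K18ac 2 of 15 oocyte genes and 1 of 9 germline genes fell, with medians of -0.21 and -0.25, sums of 985 and 837 CPM for oocyte and 589 and 485 CPM for germline, and 1092 and 931 CPM for the sperm-family genes. Over all genes 13.1% fell for H3K18ac, with a median of -0.04. The part of the oocyte and germline genes in the sperm-family values was not tested.

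Of the somatic marker lists, intestine (medians of 0.37 and 0.31 for H3K18ac and H3K27ac, with 1 of 4 and 1 of 6 higher and 0 lower) and neuron (0.07 and 0.03) lay above 0. Body wall muscle (-0.26 and -0.19, with 1 of 6 lower in each) and hypodermis (-0.51 in both, with 3 of 6 and 2 of 6 lower) lay below it. The neuron list had 3 of 8 higher and 0 lower for H3K18ac and 1 of 6 higher and 1 lower for H3K27ac. Over all genes 13.1% fell and 8.04% rose for H3K18ac, and 21.9% fell and 8.72% rose for H3K27ac. The medians over all genes were -0.04 and -0.17, so the muscle median for H3K27ac was near that of all genes. The sums of CPM on empty vector and cco-1 RNAi were 280 and 346 for intestine, 275 and 358 for neuron, 1771 and 1636 for muscle and 569 and 443 for hypodermis in H3K18ac, and 262 and 408, 290 and 367, 1441 and 1126, and 482 and 355 in H3K27ac. Every list had genes with peaks in both marks, but not the same ones: elt-2 (intestine) and unc-27 (muscle), with H3K27ac values, lie on chromosome X beyond the end of the H3K18ac table, so the medians and sums of the marks rest on partly different genes.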

How the data were processed

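Per the file headers, the authors deposited 1 table per mark with each peak's position, its nearest gene and 1 count column per RNAi condition, on 1 shared peak set. The deposited columns are taken as raw counts, being whole numbers whose totals differ; a rounded other unit would look alike. Per the submitters' processing notes, MACS2 2.1.2, Bowtie2 2.3.5, SAMtools 1.4.1 and FastQC are named, with build ce11 (WBcel235), with no roles stated; the counting program, filters, use of input and handling of reads with several matches: not given in the sources used here. The tables end on chromosome X at 7.89 Mb (H3K18ac) and 12.9 Mb (H3K27ac). None of the sperm-family genes lie on chromosome X, but some marker genes do.

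Repeated lines (119 and 111) were counted once and mitochondrial peaks (5 and 3, all with 0 counts) left out, which left 17207 and 17763 peaks. Counts were scaled to CPM without a pseudocount, since the lowest count was 5 (H3K18ac) and 18 (H3K27ac). Exact intervals of the fold come from the 2 counts (SciPy 1.17.1). Reads without molecular identifiers are not independent molecules, so the intervals cover counting error only. TMM scaling factors came from edgeR 4.0.16. RefSeq gene names and lengths (WBcel235) matched all 36 symbols.

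The members and gene lists were chosen with earlier results of these data known. Genes always named were spe and fer genes with known roles and, per family and mark, the strongest peak, the largest rise and the largest fall; other named members were chosen after their values were seen. The values of 1 gene are not reported here, though counts and medians include it. Alternatives were other scalings, pseudocounts, thresholds, filters on strength and distance, and leaving out the msp genes.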

Additional observations from a re-analysis of the deposited data

How the results depend on the processing

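No sperm-family gene rose under any H3K18ac setting tried. With median or TMM scaling 1 of 34 rose for H3K27ac, beside 15.2% and 14.5% of all genes. The median of all peaks was -0.19 before scaling. Under the other settings 0 rose. The count of H3K27ac falls was 16 in the main analysis, beside 21.9% of all genes. It was 15 with median or TMM scaling, beside 13.5% and 14.1% of all genes. Adding the 5th percentile of all CPM values as a pseudocount left 8 falls (11.8% of all genes), and a 2-fold threshold left 5 (7.08%). The count was 4 after centring on the strength decile (10.5%) and 1 of 8 among genes of at least median strength (10.4%). Percentages in brackets are shares of all genes under the same setting. The H3K27ac median log2 ratio was -0.26 after centring on the strength decile, -0.18 among genes of at least median strength and -0.38 with median scaling. The H3K18ac count of 4 falls (13.1% of all genes) was 2 of 17 without the msp genes (13.1%). It was 2 at a 2-fold threshold (2.46%) and 1 of 9 among genes of at least median strength (10.4%). All other settings included the peak nearest to the gene start, summed peaks, no scaling and a limit of 2 kb chosen after seeing the data. Under them the counts of falls stayed within 1.5 times those of the main analysis. The medians stayed inside their intervals over the genes, which served as a yardstick of size and not as a test. The cause of each shift was not tested beyond the number of genes each setting leaves. No paired analysis was possible because each group has 1 library. Depth limits the weakest peaks most: at nspd-6, with 59 and 31 counts, the interval ran from 1.22-fold to 3.05-fold lower.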
